A study of Mus musculus with 8 samples.

Results

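The liver X receptor (LXR) and lipid efflux genes, 10 of the 21958 genes in the tables, were followed across 8 RNA-seq libraries of mouse bone marrow-derived monocytes. They were chosen by name, with earlier results of these data known. The set holds the receptors *Nr1h3* and *Nr1h2*, the transporters *Abca1* and *Abcg1*, and the carriers *Apoe*, *Apoc2* and *Pltp*. It also holds the lipase *Lpl*, and *Mylip* and *Soat1*. All cultures came from C57BL/6 mice and received 50 ng/ml M-CSF, the growth factor of monocytes and macrophages, and 100 ng/ml RANKL, the cytokine that drives monocytes towards bone-resorbing osteoclasts. In the Arid1a experiment, 2 libraries of *LysM-Cre;Arid1a*fl/fl cells (cKO) were set against 2 libraries whose genotype is given as CONTROL. Cre driven by the lysozyme M gene acts in myeloid cells, so other cells of the marrow keep *Arid1a*, the gene of a DNA-binding subunit of the BAF remodeller. In the JQ1 experiment, both groups were wild type, and 2 libraries of cells given JQ1, an inhibitor of the BET readers of histone acetylation, were set against 2 control libraries without it. The methods give the mice as young, in the second month of life, and JQ1 as added a day after plating. The time at which RNA was taken is not given in the sources used here.

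LXRs are nuclear receptors that bind oxysterols, the oxidised forms of cholesterol, and pair with RXR on DNA. When a macrophage fills with cholesterol, ligand-bound LXR turns on genes that move cholesterol out of the cell and onto lipoproteins, and without ligand it is held in check by co-repressors. In macrophages the pathway is best known for the disposal of cholesterol taken up with lipoproteins and dying cells. Osteoclasts depend on membrane cholesterol for fusion and survival, and LXR agonists are known to hold back their formation.

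Each library held between 15108239 and 17302136 counted reads. The JQ1 table names its libraries by code only, and the codes were taken to mean untreated and treated. No label links a code to 1 sample, so the libraries of each JQ1 group are given as a and b, and every direction after JQ1 rests on that reading of the codes. *Hexim1*, a gene that BET inhibitors are known to raise, had 1583 and 1882 reads in the libraries read as JQ1, against 878 and 854 reads in those read as control (log2 fold change 0.99 ± 0.07, SE). *Arid1a* itself had 2031 and 1888 reads in cKO libraries, against 2616 and 3554 reads in control libraries (log2 fold change -0.65 ± 0.15), so the gene-level count was lower and not lost. The reads were not resolved by exon here. The macrophage marker *Csf1r* had at least 18407 reads in every library. Of 10 osteoclast markers, *Ctsk* and *Mmp9* were read in every library and *Calcr* had 0 reads in all 8. Control libraries of 1 group stood apart from each other by gene length. The Spearman correlation of gene length with the log2 difference, first library minus second, was -0.467 in the controls of the Arid1a experiment and 0.264 in the JQ1 controls, against -0.0325 in cKO and -0.0937 in JQ1 libraries. Over all genes tested, the log2 fold change had a correlation with gene length of 0.218 after Arid1a loss and 0.113 after JQ1. The labels do not say what separates the 2 libraries of a group, so p-values measure only the spread between these libraries. In bulk RNA, fewer cells of a type and less RNA per cell cannot be told apart.

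Of the 10 genes, 9 had enough reads to be tested in both experiments, and the lowest count among them was 93 reads. All 9 would have passed the low-count filter on the reads of either group. In cKO cells 6 of the 9 rose and 2 fell, in a fit in which 18.1% of all 11319 genes tested rose and 16.3% fell at an adjusted p under 0.05. *Apoe*, *Abca1*, *Nr1h3*, *Pltp*, *Mylip* and *Soat1* were higher, *Lpl* and *Abcg1* were lower, and *Nr1h2* did not pass the test. After JQ1 4 of the 9 rose and 3 fell, where 19.3% of all 11352 genes rose and 20.5% fell. *Apoe*, *Abcg1*, *Soat1* and *Nr1h2* were higher, *Nr1h3*, *Abca1* and *Lpl* were lower, and *Pltp* and *Mylip* did not pass. The median log2 fold change of the 9 genes was 0.81 after Arid1a loss and 0.14 after JQ1, beside medians of -0.0035 and 0.0026 over all genes tested. With a gene length offset the counts were again 6 and 2 in cKO cells and 4 and 3 after JQ1. With a fold of at least 2 asked for as well, 4 of the 9 were higher and 0 lower in cKO cells, and 0 higher and 1 lower after JQ1, whether the p of edgeR was adjusted or not.

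**Figure D1:**
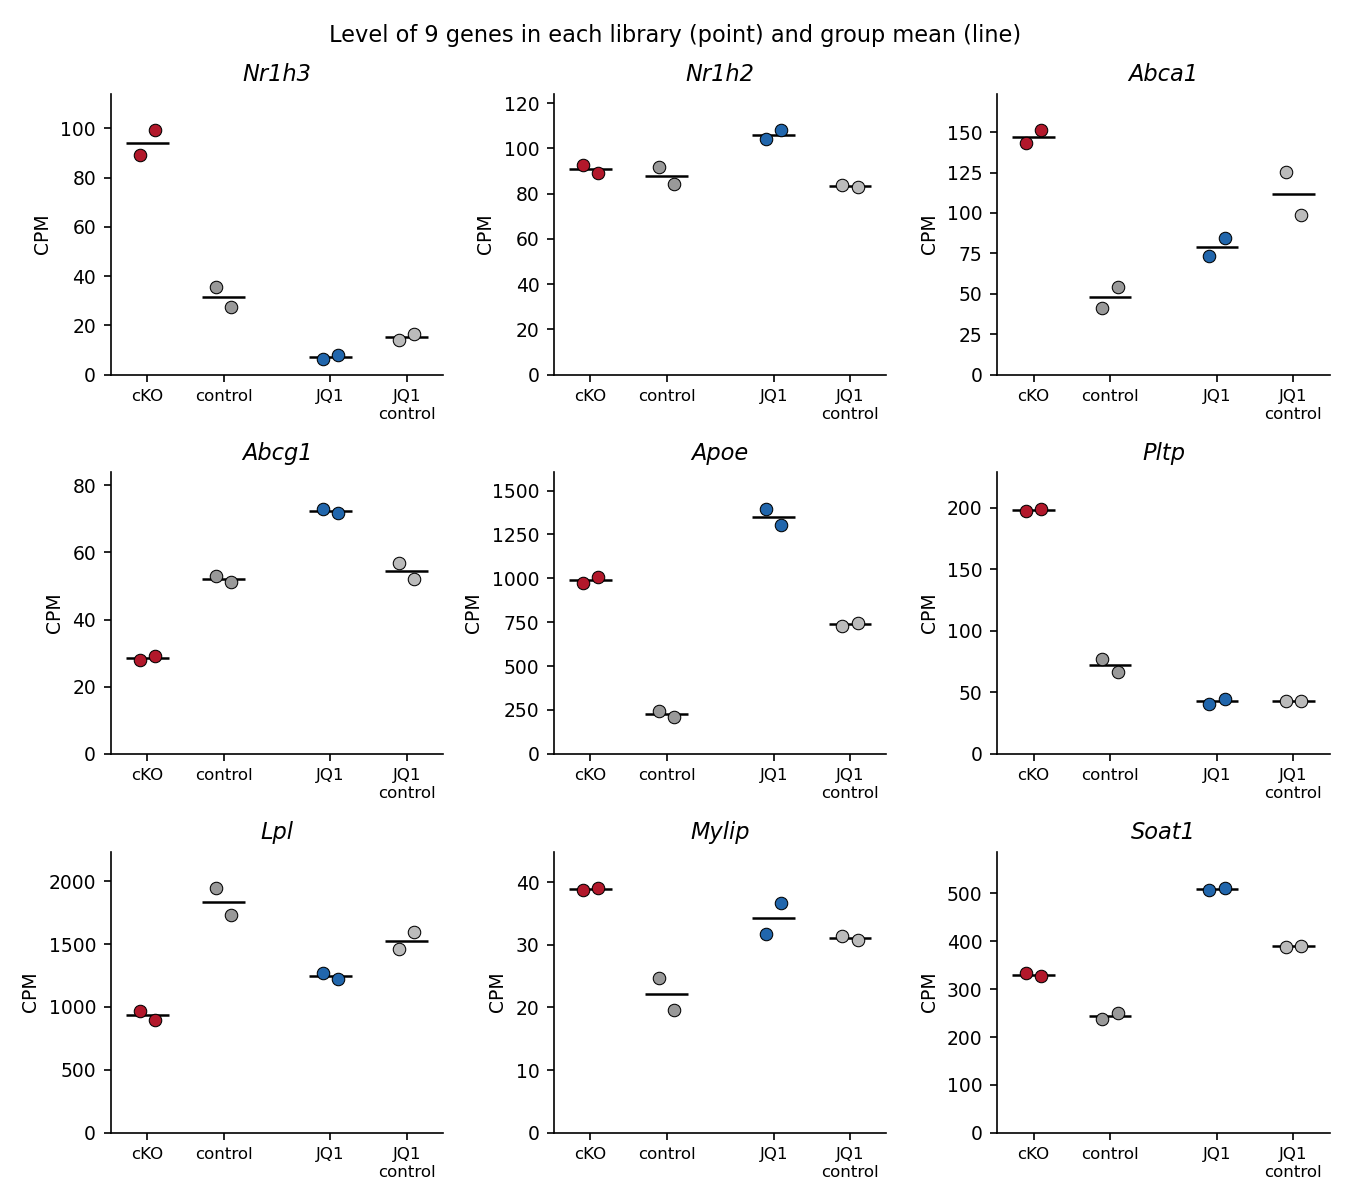
Level of the 9 tested genes in CPM (counts per 1000000 reads, scaled with TMM within each experiment) on a linear axis that starts at 0, with 1 point per library and a line at the mean of the 2 libraries of a group. Groups overlapped for *Nr1h2* in the Arid1a experiment and for *Pltp* in the JQ1 experiment. How many of all genes tested had groups apart was not counted, so the gaps are not read as a trait of these genes.

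*Nr1h3* encodes LXR-alpha, the form found in macrophages, liver and fat, and in human macrophages it is known to raise its own gene. It had 89.1 and 99.2 CPM in cKO libraries, against 35.8 and 27.4 CPM in control libraries. Both cKO libraries lay above both controls, by 1.57 ± 0.14 on the log2 scale (a fold of 2.98, edgeR adjusted p = 1.45e-05). In the JQ1 experiment *Nr1h3* had 6.21 and 7.83 CPM in JQ1 libraries, against 14.0 and 16.4 CPM in JQ1 control libraries. Both JQ1 libraries lay below both controls, with a log2 fold change of -1.10 ± 0.16 (edgeR adjusted p = 8.41e-09). This was the lowest level of any tested member, 93 and 133 reads. *Nr1h3* shares 256 of its 5060 exon bases (5.06%) in GENCODE vM39 with *Acp2*, a lysosomal acid phosphatase gene on the other strand. *Acp2* had log2 fold changes of 1.06 ± 0.09 in cKO cells and -0.21 ± 0.06 after JQ1. By the deposited gene spans, unlike in GENCODE vM39, *Nr1h3* and *Acp2* do not overlap. The strand setting is not stated, so how reads of the shared stretch were counted is not known.

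*Nr1h2* encodes LXR-beta, the form present in nearly all tissues. It had 92.8 and 89.3 CPM in cKO libraries, against 91.7 and 84.0 CPM in control libraries. These groups overlapped, and the log2 fold change of 0.05 ± 0.10 had a 95% interval of -0.17 to 0.27 (edgeR adjusted p = 0.731). Its sign turned with upper-quartile scaling (-0.01) and without control library 2 (-0.01). After JQ1 the gene had 104 and 108 CPM, against 83.9 and 83.1 CPM in JQ1 control libraries. That was a rise of 0.35 ± 0.07 on the log2 scale (edgeR adjusted p = 1.18e-05), with no overlap.

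The balance of the 2 receptor transcripts followed from these changes. Per length, as the ratio of FPKM values (reads per kilobase of gene and per 1000000 reads, as deposited for the Arid1a experiment and computed in the same way from the JQ1 counts), *Nr1h3* stood at 1.28 and 1.48 times *Nr1h2* in cKO libraries, against 0.521 and 0.435 times in control libraries. In the JQ1 experiment the ratio was 0.0795 and 0.0967 in JQ1 libraries, against 0.222 and 0.263 in JQ1 control libraries. *Nr1h3* was the more abundant of the pair in the cKO libraries and the less abundant in the other 6. The controls of the 2 experiments come from tables that were scaled apart, and the gap between them was not tested.

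**Figure D2:**
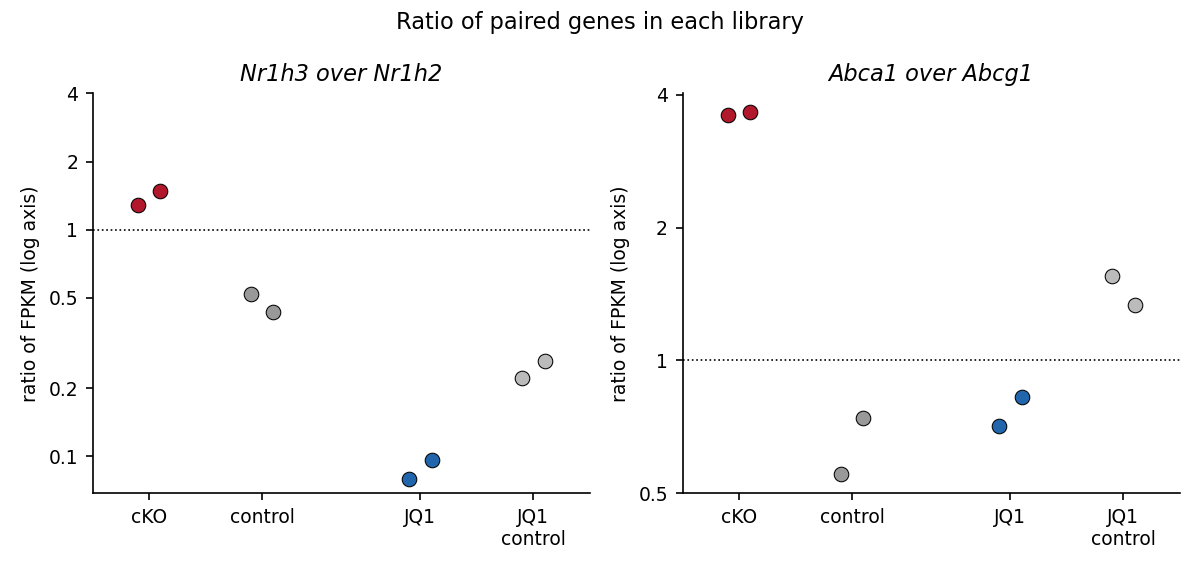
Ratio of FPKM of *Nr1h3* to *Nr1h2* and of *Abca1* to *Abcg1* in each library, on log axes, with a dotted line where both genes of a pair are equal. The cKO libraries had 1.28 and 1.48 for the receptors and 3.61 and 3.67 for the transporters, above 1 in both pairs.

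The transporters of cholesterol efflux moved apart from each other. *Abca1* encodes the transporter that loads cholesterol and phospholipid onto lipid-poor apolipoprotein A-I, the first step in making high-density lipoprotein (HDL). It had 143 and 151 CPM in cKO libraries, against 41.6 and 54.0 CPM in control libraries. The cKO level was the higher in both libraries, by 1.62 ± 0.13 on the log2 scale (a fold of 3.08, edgeR adjusted p = 7.64e-06). After JQ1 *Abca1* had 73.5 and 84.4 CPM, against 125 and 98.5 CPM in JQ1 control libraries. It fell by 0.50 on the log2 scale (log2 fold change -0.50 ± 0.08, edgeR adjusted p = 1.15e-05). The size of that fall moved with the control library left out, to -0.31 without JQ1 control a and to -0.67 without JQ1 control b. The call was weaker by DESeq2 (adjusted p = 0.0400) and in 1 edgeR fit over 8 libraries (adjusted p = 0.00971).

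*Abcg1* encodes the transporter that passes cholesterol to HDL particles already formed. It had 27.9 and 29.0 CPM in cKO libraries, against 53.0 and 51.2 CPM in control libraries. This was a fall of 0.87 on the log2 scale (log2 fold change -0.87 ± 0.11, edgeR adjusted p = 1.66e-04), opposite to *Abca1* in the same libraries. After JQ1 *Abcg1* had 72.9 and 71.8 CPM, against 56.7 and 52.0 CPM in JQ1 control libraries. It rose by 0.41 ± 0.08 on the log2 scale (edgeR adjusted p = 5.87e-06), again opposite to *Abca1*. The FPKM ratio of *Abca1* to *Abcg1* was 3.61 and 3.67 in cKO libraries, against 0.552 and 0.742 in control libraries, and 0.710 and 0.828 in JQ1 libraries, against 1.56 and 1.34 in JQ1 control libraries.

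RefSeq start-site windows, 250 bases before to 50 after the start, were matched by symbol for 8 of the 10 genes, 11 windows in all, with none for *Lpl* and *Abcg1*. The windows come from RefSeq on GRCm38.p6 and were placed on GRCm39, the build of the tables, by exact match. They were searched on both strands for the DR4 element bound by LXR with RXR, 2 copies of AGGTCA with 4 bases between them, allowing 3 mismatches in the 12 letters. The *Abca1* window held a match, on the strand opposite to the gene with 3 mismatches and starting 67 bases before the start site, and the other 10 windows held none. Of 32851 windows of all genes, 21.9% held such a match. *Abca1* and *Pltp*, which rose together in cKO cells, are shown with *Apoe*, the gene that rose most, so that the 1 window with a DR4 match can be set beside those without. Capitals mark both AGGTCA-like copies of the DR4 match and TATAAA, the letters of the TATA box, found in 13.6% of all windows. The DR4 match and TATAAA do not overlap. All 3 genes lie on the minus strand, and on GRCm39 the windows are chr4:53159846-53160145 for *Abca1*, chr7:19433064-19433363 for *Apoe*, the first of its 3 windows, and chr2:164699579-164699878 for *Pltp*.
Abca1: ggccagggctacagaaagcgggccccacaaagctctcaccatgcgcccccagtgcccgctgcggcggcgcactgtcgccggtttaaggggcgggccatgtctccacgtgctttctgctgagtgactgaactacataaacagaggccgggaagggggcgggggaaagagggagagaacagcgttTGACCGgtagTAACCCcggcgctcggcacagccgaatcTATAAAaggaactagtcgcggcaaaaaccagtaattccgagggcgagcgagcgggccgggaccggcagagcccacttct
Apoe: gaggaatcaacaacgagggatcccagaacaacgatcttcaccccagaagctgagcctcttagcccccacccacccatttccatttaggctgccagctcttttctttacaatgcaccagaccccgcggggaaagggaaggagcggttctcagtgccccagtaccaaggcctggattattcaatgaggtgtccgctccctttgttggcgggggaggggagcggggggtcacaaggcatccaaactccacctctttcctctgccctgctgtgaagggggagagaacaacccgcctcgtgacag
Pltp: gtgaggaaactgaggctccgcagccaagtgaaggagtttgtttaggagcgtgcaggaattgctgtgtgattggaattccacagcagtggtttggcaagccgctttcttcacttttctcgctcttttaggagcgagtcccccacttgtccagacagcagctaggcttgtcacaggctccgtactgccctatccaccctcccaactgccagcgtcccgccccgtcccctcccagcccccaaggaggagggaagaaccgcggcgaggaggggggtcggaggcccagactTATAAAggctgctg
In the *Abca1* window TATAAA begins 29 bases before the start, and the E-box letters CACGTG, present in 7.15% of all windows, begin 147 bases before it. The *Apoe* window held none of these motifs, and in *Pltp* TATAAA lies after the start, from base 37. A match is a run of letters and was not tested for binding here.

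The carriers take up or move the lipid once it leaves the cell. *Apoe* encodes apolipoprotein E, which macrophages secrete with cholesterol and which carries lipid between cells. It had 974.5 and 1009 CPM in cKO libraries, against 243 and 207 CPM in control libraries. Its count was 15746 reads in both cKO libraries, while the other 8 tested genes had different counts in these 2 libraries. The rise was 2.14 ± 0.10 on the log2 scale (a fold of 4.41, edgeR adjusted p = 2.14e-07), and 172 of the genes tested rose more. By FPKM *Apoe* ranked 51 and 50 among all genes in cKO libraries, against 343 and 386 in control libraries. After JQ1 it had 1394 and 1306 CPM, against 730 and 747 CPM in JQ1 control libraries. It rose by 0.87 ± 0.05 on the log2 scale (a fold of 1.83, edgeR adjusted p = 2.30e-34), with 170 genes rising more, and ranked 38 by FPKM in both JQ1 libraries. Across the 2 tables, scaled apart, *Apoe* had 349 and 355 FPKM in JQ1 control libraries beside 115 and 99.4 FPKM in the controls of the Arid1a experiment. Of 10987 genes, the 3 whose log2 CPM over the 8 libraries, centred within each experiment, was most like that of *Apoe* were *Chek2*, *Zdhhc18* and *Retreg1* (Pearson r of 0.999, 0.997 and 0.997). These 8 points fall into 4 pairs of replicates, so the r describes little more than the 2 group differences.

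The genes around *Apoe* on chromosome 7 were looked at after its values were seen. *Apoc1* and *Apoc4*, apolipoprotein genes of the same cluster, had at most 6 and 2 reads in any library. *Tomm40*, a subunit of the import pore of mitochondria, fell in both experiments (log2 fold changes -0.72 ± 0.12 and -0.24 ± 0.09), as did *Nectin2*, an adhesion molecule (-1.73 ± 0.22 and -0.72 ± 0.19). *Clptm1* had 0.16 ± 0.09 (adjusted p = 0.181) in cKO cells and rose by 0.15 ± 0.06 after JQ1. *Bcam*, with at most 92 reads in a library, rose by 1.03 ± 0.31 in cKO cells and fell by 1.59 on the log2 scale after JQ1.

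*Apoc2* encodes the cofactor that lipoprotein lipase needs, and in human and mouse macrophages its gene is known as an LXR target of the *Apoe* cluster. It had 0 reads in all 4 libraries of the Arid1a experiment. In the JQ1 experiment it had 1 read over the JQ1 libraries and 1 read over the JQ1 control libraries. All groups lay under the floor of 3 reads over a group, so no fold is given. The tables place *Apoc2* across *Apoc2l* on the same strand, so reads of the shared stretch could go to either.

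*Pltp* encodes the phospholipid transfer protein, which remodels HDL in plasma. It had 197 and 199 CPM in cKO libraries, against 76.7 and 66.7 CPM in control libraries. That was a rise of 1.46 ± 0.10 on the log2 scale (a fold of 2.76, edgeR adjusted p = 3.11e-06), with a clear gap between the groups. After JQ1 it had 40.5 and 44.5 CPM, against 42.8 and 42.8 CPM in JQ1 control libraries. These groups overlapped, and the log2 fold change of -0.01 ± 0.09 had a 95% interval of -0.19 to 0.17 (edgeR adjusted p = 0.952). *Pltp* shares 1252 of its 5897 exon bases (21.2%) in GENCODE vM39 with *Ctsa*, a lysosomal protease gene on the other strand. The deposited spans of these genes overlap as well. *Ctsa* had a log2 fold change of -0.02 ± 0.09 in cKO cells (edgeR adjusted p = 0.901) and rose by 0.29 ± 0.05 after JQ1.

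**Figure D3:**
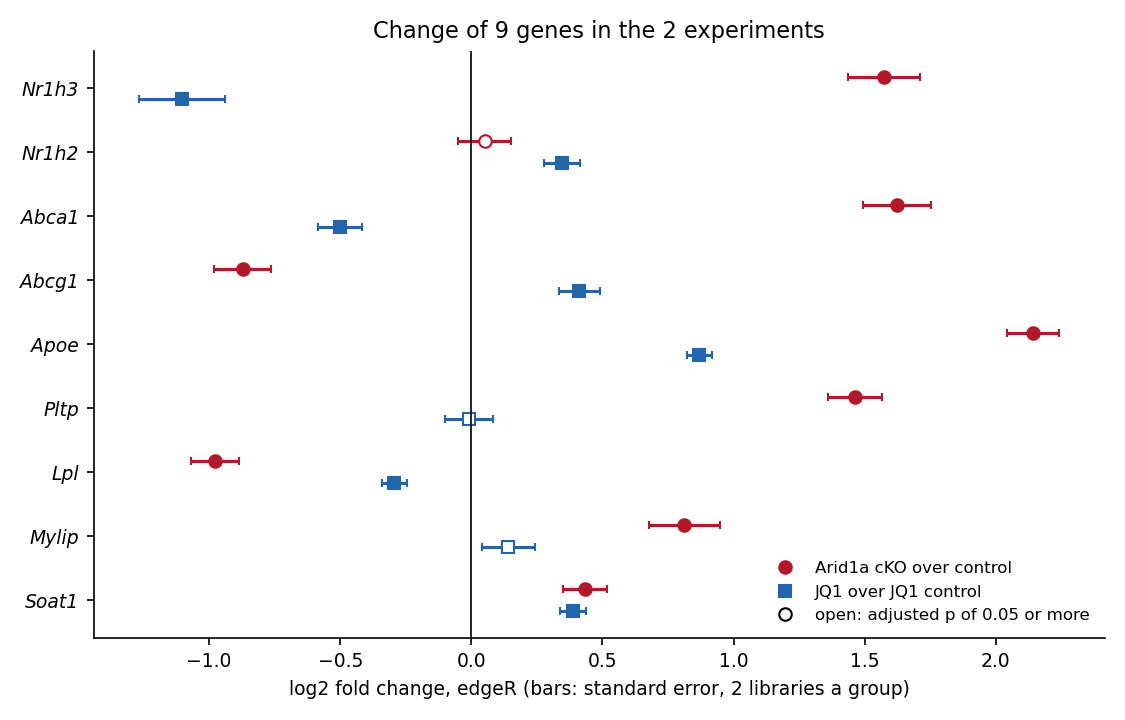
Log2 fold change of the 9 tested genes in cKO over control (circles) and JQ1 over JQ1 control (squares), with standard errors from the edgeR fit and open symbols where the adjusted p was 0.05 or more. *Nr1h3* and *Abca1* lie to the right of 0 for cKO and to the left for JQ1, and *Abcg1* the other way round.

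*Lpl* encodes lipoprotein lipase, which frees fatty acids from triglyceride in lipoproteins. Its transcript was also the most read of the 10 in the controls of both experiments. By FPKM, which allows for gene length, *Lpl* stood below *Apoe* in JQ1 control libraries (142 and 155, against 349 and 355). It had 969 and 897 CPM in cKO libraries, against 1944 and 1732 CPM in control libraries. The fold was 0.508, with a log2 fold change of -0.98 ± 0.09 (edgeR adjusted p = 2.24e-05). By FPKM it ranked 430 and 474 in cKO libraries, against 195 and 201 in control libraries. After JQ1 *Lpl* had 1273 and 1219 CPM, against 1458 and 1598 CPM in JQ1 control libraries. It fell by 0.29 on the log2 scale (log2 fold change -0.29 ± 0.05, edgeR adjusted p = 8.29e-08), and here too the groups did not overlap.

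*Lpl* is also a gene of fat cells, and the JQ1 control libraries held reads of adipocyte markers. *Adipoq*, *Plin1*, *Cidec*, *Retn* and *Lep* together had 41 and 57 reads in JQ1 libraries, against 451 and 345 reads in JQ1 control libraries. These 5 were set apart from *Adipor2*, the other adipocyte marker on the list, after values were seen. *Lep* alone had 21 and 21 reads in JQ1 libraries, against 198 and 148 reads in JQ1 control libraries (log2 fold change -3.05). The JQ1 control libraries alone kept the other 4 in the test, and their calls are not read as a result. *Adipor2*, which every library held at 1626 reads or more, rose by 0.38 on the log2 scale. As a share of the library total, with no TMM scaling, the list summed to 153 and 150.2 CPM in JQ1 libraries, against 152 and 137 CPM in JQ1 control libraries, nearly all of it *Adipor2*. The part of these markers in the fall of *Lpl* after JQ1 was not tested. In the Arid1a experiment, where *Lpl* fell more, the same 5 markers had 0 reads in both cKO libraries, against 0 and 2 reads in control libraries.

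**Figure D4:**
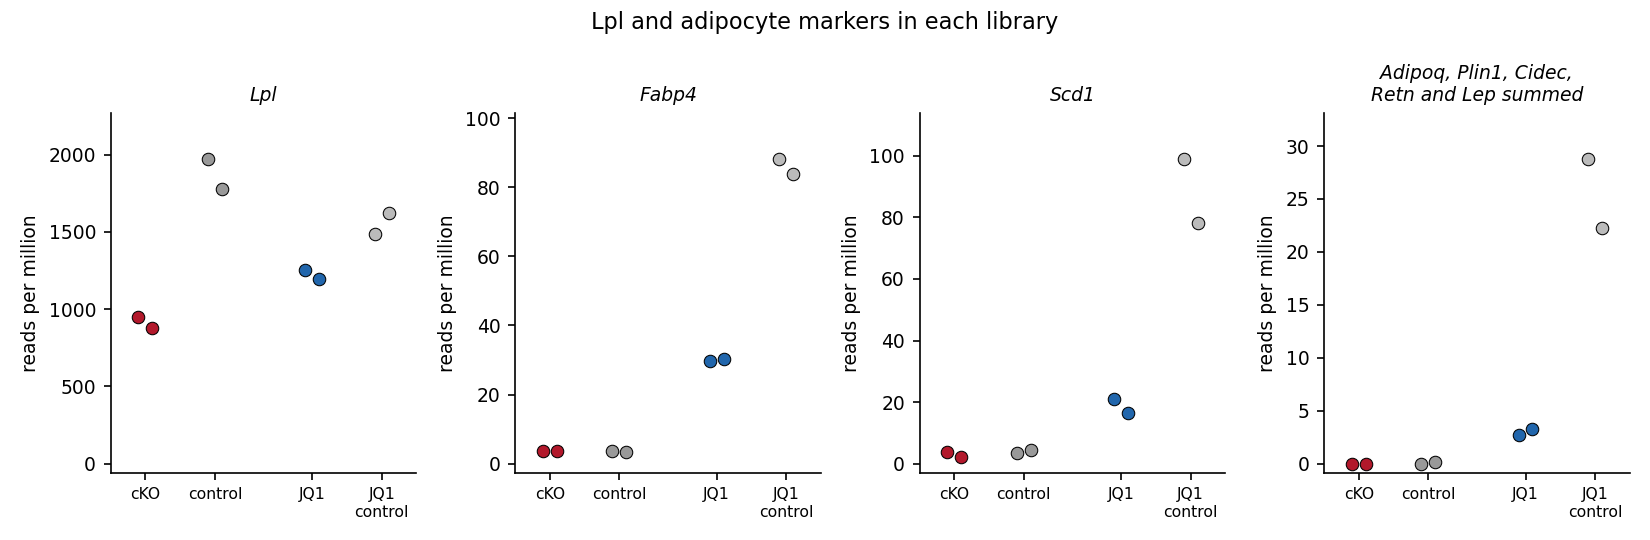
Reads per 1000000 reads of the library for *Lpl*, for *Fabp4* and *Scd1*, and for the sum of 5 adipocyte markers, with 1 point per library and axes that start near 0. The marker sum is 2.69 and 3.29 in JQ1 libraries against 28.8 and 22.3 in JQ1 control libraries, and 0 to 0.132 in the Arid1a experiment. It leaves out *Adipor2*, which rose after JQ1, a choice made after values were seen.

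The last pair acts on cholesterol inside the cell. *Mylip* encodes IDOL, a ubiquitin ligase through which LXR limits the uptake of lipoprotein cholesterol. It had 38.8 and 39.0 CPM in cKO libraries, against 24.6 and 19.6 CPM in control libraries. This was a rise of 0.81 ± 0.14 on the log2 scale (edgeR adjusted p = 0.00108). After JQ1 *Mylip* had 31.8 and 36.7 CPM, against 31.5 and 30.7 CPM in JQ1 control libraries. Both JQ1 libraries lay above both controls, but the log2 fold change of 0.14 ± 0.10 (95% interval -0.06 to 0.34) did not pass the test (edgeR adjusted p = 0.269).

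*Soat1* encodes the enzyme that turns free cholesterol into the cholesteryl ester of lipid droplets. It had 334 and 327 CPM in cKO libraries, against 239 and 251 CPM in control libraries. The rise of 0.43 ± 0.08 on the log2 scale passed the test (edgeR adjusted p = 0.00276), but with 1 cKO library left out it did not (adjusted p = 0.0980 without cKO library 1 and 0.0706 without cKO library 2, with log2 fold changes of 0.42 and 0.45). After JQ1 *Soat1* had 507 and 511 CPM, against 388 and 391 CPM in JQ1 control libraries. It rose by 0.39 ± 0.05 on the log2 scale (edgeR adjusted p = 6.86e-11).

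Whether the response to Arid1a loss differed from that to JQ1 was tested as an interaction in a fit over all 8 libraries, in which 28.3% of 11767 genes passed in either direction. Of the 9 genes, 7 passed. The difference, Arid1a response minus JQ1 response, was 2.67 ± 0.21 for *Nr1h3* (edgeR adjusted p = 9.28e-08) and 2.12 ± 0.18 for *Abca1* (4.53e-07). For both genes the responses had opposite signs. *Abcg1* was the reverse case, lower in cKO and higher after JQ1, with a difference of -1.29 ± 0.13 (adjusted p = 1.26e-06). *Pltp* (1.47 ± 0.13), *Apoe* (1.27 ± 0.11) and *Mylip* (0.67 ± 0.17) had the larger log2 fold change in the Arid1a experiment. *Lpl* fell further there, with a difference of -0.69 ± 0.10. The call for *Mylip* (adjusted p = 0.00756) was lost without JQ1 library a (0.0582). *Soat1* had a difference of 0.05 ± 0.09 (95% interval -0.14 to 0.23), and its rises in the 2 experiments were 0.43 and 0.39. *Nr1h2* had -0.30 ± 0.11 (95% interval -0.54 to -0.06, adjusted p = 0.0603), which passed with RLE factors (0.0472), upper-quartile factors (0.0292), a gene length offset (0.0484) and without Arid1a control library 2 (0.00241). Experiment and treatment cannot be told apart in this test, since each treatment has its own controls in its own table.

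Further genes of the pathway were read from lists drawn up by function, with earlier results of these data known. Each list is given beside the shares of all genes called that stand above. Of 20 other LXR target genes 14 were tested. In cKO cells 5 rose and 2 fell, and 4 rose and 4 fell after JQ1, with medians of -0.09 and 0.03. In cKO cells *Tgm2*, transglutaminase of macrophages that engulf dying cells, rose by 1.38 ± 0.10 and *Smpdl3a*, a secreted phosphodiesterase, rose by 0.94 ± 0.09. *Fads2* and *Fads1*, desaturases of polyunsaturated fatty acids, rose by 1.33 ± 0.14 and 0.79 ± 0.10. *Srebf1*, the fatty acid synthesis regulator that LXR is known to raise, had -0.15 ± 0.11 in cKO cells and 0.01 ± 0.07 after JQ1, and did not pass in either. *Mertk*, a receptor for dying cells, rose by 1.00 ± 0.08 after JQ1 and by 0.87 ± 0.18 in cKO cells. Its 2 responses did not differ in the interaction test (edgeR adjusted p = 0.678). After JQ1 *Acsl3*, an acyl-CoA synthetase, rose by 0.65 ± 0.10. *Tgm2* fell by 0.72 on the log2 scale after JQ1. *Scd1*, the desaturase that makes oleate and is high in fat cells, fell to 19.1 ± 3.19 CPM in JQ1 cells, against 87.0 ± 14.2 CPM in JQ1 control cells (SD, n = 2 each). Of the adipocyte markers above, *Lep* fell in the same libraries and *Adipor2* rose.

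Partners and co-regulators of LXR numbered 17, of which 15 were tested. In cKO cells 6 rose and 1 fell, and 3 rose and 2 fell after JQ1. *Ppard*, a nuclear receptor for fatty acids, rose in both, by 1.22 ± 0.15 and 0.52 ± 0.13. The co-activators *Ncoa3* and *Ncoa2* rose in cKO cells by 0.87 ± 0.10 and 0.82 ± 0.16, and *Tbl1x*, a subunit of the co-repressor complex, by 0.48 ± 0.09. *Pparg*, which drives fat cell genes and in macrophages lies upstream of *Nr1h3*, had 0.18 ± 0.15 in cKO cells (adjusted p = 0.389) and fell by 0.79 on the log2 scale after JQ1. *Rxrb*, one of the DNA-binding partners, rose by 0.33 ± 0.10 after JQ1, and *Tbl1xr1* fell by 0.35. Of 6 genes of oxysterol metabolism 2 were tested, *Cyp27a1* and *Ch25h*, both enzymes that make LXR ligands. By edgeR 0 of the 2 passed in either experiment, and 0 by DESeq2, while at an unadjusted p under 0.05 the count was 0 in cKO cells and 1, lower, after JQ1. *Cyp27a1* had log2 fold changes of -0.47 ± 0.34 and -0.13 ± 0.17, and *Ch25h* 0.21 ± 0.35 and -0.64 ± 0.31.

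Of 19 genes of lipoprotein uptake and sterol handling 18 were tested in the Arid1a experiment, and 13 rose and 0 fell in cKO cells. The count higher includes *Soat2* (40 and 26 reads in cKO libraries, against 9 and 10 reads in control libraries) and *Vldlr* (17 and 36 reads, against 11 and 6 reads), which passed the low-count filter only through the cKO libraries, where they were high, as did *Olr1*, which was not called. Without these 3 genes 11 of 15 rose and 0 fell, with a median of 0.49. The count lower was also 0 at an unadjusted p under 0.05 by edgeR and by DESeq2, and 2 with a gene length offset. *Lipa*, which frees cholesterol from esters in lysosomes, rose by 0.67 ± 0.08, and *Npc1*, which carries it out of lysosomes, by 0.64 ± 0.12. *Nceh1*, which splits cholesteryl esters of lipid droplets, rose by 0.52 ± 0.09. After JQ1 6 of 15 rose and 6 fell. *Nceh1* and *Lipa* rose again, by 0.46 ± 0.05 and 0.31 ± 0.04. *Plin2*, which coats lipid droplets, and *Msr1*, the scavenger receptor for modified low-density lipoprotein, fell by 0.51 and 0.47 on the log2 scale after JQ1, while in cKO cells they rose by 0.45 ± 0.10 and 0.40 ± 0.08. The differences between the experiments were 0.96 for *Plin2* (adjusted p = 1.21e-05) and 0.86 for *Msr1* (1.12e-06).

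Of 22 genes of SREBP2 and cholesterol synthesis, which cells raise when membrane cholesterol is low, 21 were tested. By edgeR 10 rose and 0 fell in cKO cells (median 0.32), and 2 rose and 7 fell after JQ1 (median -0.10). *Cyp51* and *Sc5d*, enzymes of the pathway, rose in cKO cells by 0.69 ± 0.11 and 0.62 ± 0.12, and *Insig1*, which holds the pathway back, rose by 0.60 ± 0.11. After JQ1 *Hmgcs1* and *Fdft1*, also enzymes of the pathway, fell by 0.31 and 0.57 on the log2 scale. The count lower in cKO cells was 0 at an unadjusted p under 0.05 and by DESeq2 as well. By DESeq2 0 rose and 6 fell after JQ1, and at an unadjusted p under 0.05 by edgeR 3 rose and 8 fell. For 14 of the 21 genes the Arid1a response was above the JQ1 response in the interaction test, and for 0 it was below (1 at an unadjusted p under 0.05, and 0 by DESeq2).

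Of 17 partners of lipoprotein lipase and carriers of fatty acids 12 were tested in the Arid1a experiment and 10 in the JQ1 experiment. In cKO cells 1 rose and 1 fell. These were *Lipg*, a lipase with 19 and 14 reads in cKO libraries, against 1 and 1 reads in control libraries, and *Fabp3*, a fatty acid carrier with 0 and 2 reads in cKO libraries, against 19 and 15 reads in control libraries. Each passed the low-count filter only through the group where it was high, and neither call is read as a result. After JQ1 0 rose and 5 fell by edgeR, with 1 and 6 at an unadjusted p under 0.05 and 0 and 4 by DESeq2. *Fabp4*, the fatty acid carrier of fat cells and macrophages, fell to 30.5 ± 0.49 CPM in JQ1 cells, against 84.5 ± 2.76 CPM in JQ1 control cells. *Angptl4*, which switches lipoprotein lipase off, had 10 and 7 reads in JQ1 libraries, against 40 and 40 reads in JQ1 control libraries. The JQ1 control libraries alone kept it in the test, and its call is not read as a result. Without *Angptl4* 0 of 9 rose and 4 fell by edgeR. *Mgll*, a lipase of fat cells, fell by 2.00 on the log2 scale after JQ1. Of the adipocyte markers above, *Lep* fell in the same libraries and *Adipor2* rose. The part of these markers in the falls of *Fabp4* and *Mgll* was not tested.

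**Figure D5:**
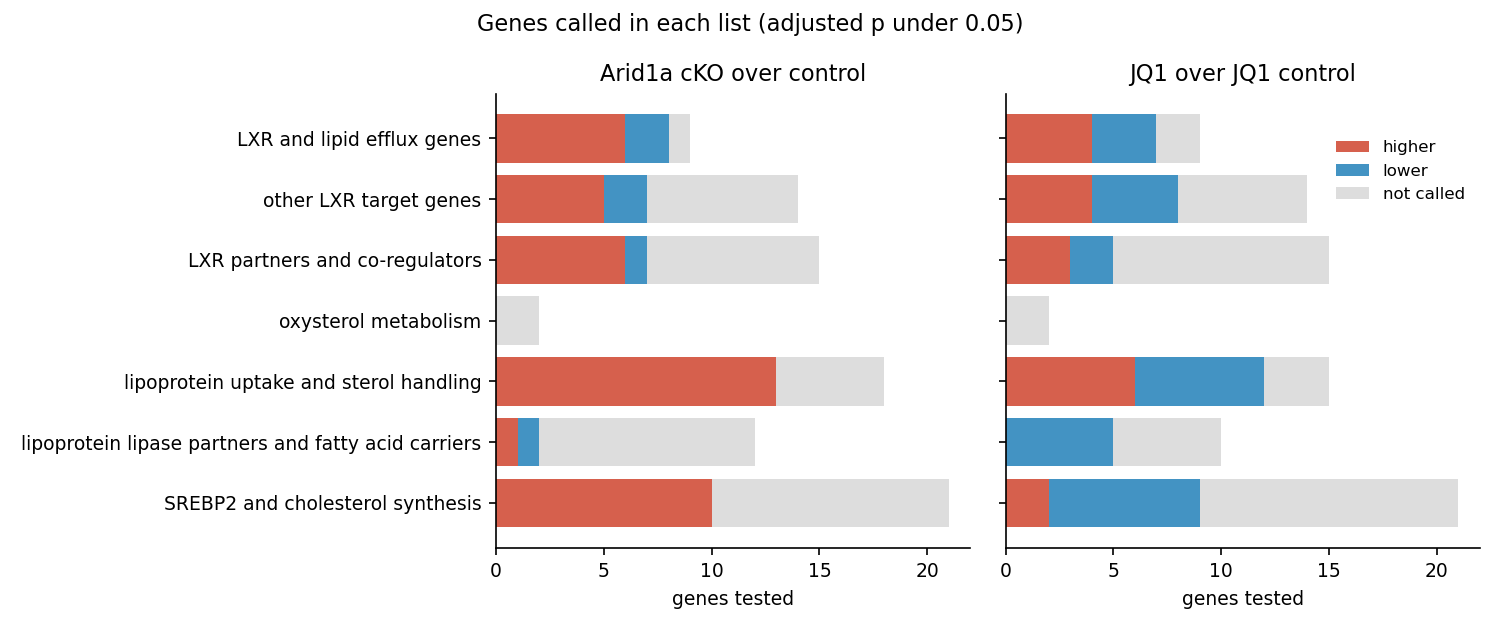
Number of tested genes in each list that were higher, lower or not called at an adjusted p under 0.05, in cKO over control (left) and JQ1 over JQ1 control (right). In cKO cells the uptake and sterol handling list has 13 higher and 0 lower of 18, with 2 of the 13 kept in the test by the cKO libraries alone, and the cholesterol synthesis list 10 higher and 0 lower of 21.

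Markers of other cells moved with the groups as well. Of 9 neutrophil markers tested, 8 rose in cKO cells and 6 fell after JQ1. In the Arid1a experiment *Elane* and *Camp* passed the low-count filter only through the cKO libraries. In the JQ1 experiment *Mpo* and *Camp* passed it only through the JQ1 control libraries. Without these genes 6 of 7 rose in cKO cells, and 4 of 7 fell after JQ1. The summed level of the list, again with no TMM scaling, was 267 and 242 CPM in cKO libraries, against 147 and 155 CPM in control libraries. It was 35.7 and 36.2 CPM in JQ1 libraries, against 93.2 and 92.3 CPM in JQ1 control libraries. *Mmp8*, the neutrophil marker that did not pass in cKO cells, made up much of these sums, with 132 ± 1.64 CPM in cKO cells and 123 ± 10.8 CPM in control cells (SD, n = 2 each). The median log2 fold change of the 9 markers in cKO cells was 2.10. Of 10 monocyte and macrophage markers 7 rose and 2 fell in cKO cells. Their sum was 9819 and 9774 CPM in cKO libraries, against 16885 and 14607 CPM in control libraries. It was 20756 and 21422 CPM in JQ1 libraries, against 16744 and 17651 CPM in JQ1 control libraries. *Lyz2*, the lysozyme M gene whose promoter drives Cre in cKO cells, made up most of the sum in every group but cKO. That gene had 4493 ± 57.2 CPM in cKO cells, against 11768 ± 1685.5 CPM in control cells (log2 fold change -1.39). *Cd14* was the other of the 2 that fell (log2 fold change -0.54), so the lower sum in cKO libraries does not mean that the list fell. After JQ1 4 of those 10 rose and 4 fell, and *Ccr2*, 1 of the 4 lower, was kept in the test by the JQ1 control libraries alone. Without *Ccr2* 4 of 9 rose and 3 fell. Of the osteoclast markers tested, 4 of 8 fell and 1 rose in cKO cells, and 5 of 7 fell and 1 rose after JQ1. Of the stromal and osteoblast markers tested, 4 of 5 fell and 0 rose after JQ1, among them *Col3a1* (log2 fold change -3.27) and *Col1a1*. Without *Cxcl12*, kept in the test by the JQ1 control libraries alone, 3 of 4 fell. The summed level of the list was 24.1 and 25.7 CPM in JQ1 libraries, against 62.0 and 51.2 CPM in JQ1 control libraries. In cKO cells 1 of 4 fell. Of the endothelial markers, *Kdr* fell by 1.42 on the log2 scale after JQ1 and rose by 1.21 in cKO cells. *Pecam1* and *Cdh5* were also lower after JQ1. The JQ1 control libraries alone kept them in that test, and neither call is read as a result. In cKO cells *Cdh5* fell by 1.58 on the log2 scale. *Itgax*, the 1 dendritic cell marker tested, rose by 0.94 in cKO cells and fell by 1.10 after JQ1. Of the mast cell and basophil markers *Gata2* rose by 2.38 in cKO cells and *Kit* fell by 2.55 after JQ1, the only ones tested. *Kit* was kept in the test by the JQ1 control libraries alone, and its call is not read as a result. No marker of erythroid, B, T or NK cells had enough reads to be tested. The part of these shifts in the changes of the 9 genes was not tested.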

How the data were processed

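The counts per gene are the authors' own, made with Cutadapt for trimming, HISAT2 for alignment to GRCm39 and HTSeq for counting. Annotation release and strand setting: not given in the sources used here. The deposited FPKM of the Arid1a table, which the authors made from counts, gene length and library total, was used as it stands. The 4 FPKM columns of the JQ1 table were not used, and FPKM was computed from its counts by the same formula. Each table lists 21958 genes, and 51 carry no symbol. Library totals were 15108239 to 17302136 reads, and shallow genes are the least precise.

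Each experiment was fitted by itself. After filterByExpr and TMM scaling, the quasi-likelihood test of edgeR 4.0.16 (robust, R 4.3.3) was run on the counts. The threshold was an adjusted p of 0.05 (Benjamini-Hochberg over all genes tested), and the standard error is the size of the log2 fold change over the root of F. The difference between responses was an interaction over 8 libraries. Alternatives were DESeq2 1.42.0, limma-voom (limma 3.58.1), RLE and upper-quartile factors, other filters, a replicate block, leaving out each library, a gene length offset, at least 2-fold, and 1 fit over 8 libraries. The list counts under other settings, and without genes that 1 group alone took past the filter, were added after seeing the data. The test was checked on simulated data.

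The members and lists were chosen with earlier results of these data known. Named were all 10 members, from each other list up to 4 genes by smallest p in each experiment, the 3 genes most like *Apoe*, and *Arid1a* and *Hexim1*. *Srebf1*, the neighbours of *Apoe* and the genes that overlap members were added after values were seen. Of the genes the rule named, 2 are not reported here.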

Additional observations from a re-analysis of the deposited data

Results flagged for a closer look

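For 7 of the 9 tested genes the response to Arid1a loss and the response to JQ1 differed in the interaction test of edgeR (adjusted p under 0.05). In that test 28.3% of all 11767 genes passed in either direction, and experiment and treatment cannot be told apart in it. The difference, Arid1a response minus JQ1 response on the log2 scale, was 2.67 for *Nr1h3*, 2.12 for *Abca1*, 1.47 for *Pltp*, 1.27 for *Apoe* and 0.67 for *Mylip*. It was -0.69 for *Lpl* and -1.29 for *Abcg1*. For *Nr1h3*, *Abca1* and *Abcg1* the response in each experiment had passed its own test with the opposite sign.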

How the results depend on the processing

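With 2 libraries a group, the limits lie in how the spread is estimated. Apart from the rule of at least 2-fold, settings kept the sign and the side of the threshold for 364 values of single genes, 7 changed sign, 4 gained and 3 lost a call. The sign changed for values near 0: *Nr1h2* after Arid1a loss (-0.0107 with upper-quartile factors, -0.0105 without control library 2, 0.0238 to 0.1109 without another), *Pltp* after JQ1 (0.0032 with no filter, 0.0179 with a gene length offset, 0.0598 without JQ1 library a, -0.0743 without JQ1 library b) and the difference for *Soat1* (-0.0096 with upper-quartile factors, -0.0308 with a length offset). A fold of at least 2 left 1002 genes after Arid1a loss (1110 with unadjusted p), 793 after JQ1 (859) and 1213 for the difference (1462). Under both of these rules 0 members were lower after Arid1a loss, and 0 were higher and 1 lower after JQ1. One fit over 8 libraries called 2973 genes after JQ1. Leaving out a library gave 2235 to 6083 genes after Arid1a loss, 3251 to 3915 after JQ1 and 2214 to 4965 for the difference. The lone library was then assumed to vary like the others. The causes were not tested. Replicate numbers carried no stated link between groups, and same-numbered libraries did not deviate together (correlations 0.0095 and -0.021). With a replicate block 4400, 4129 and 3330 genes were called, and the counts of members, 6 higher and 2 lower after Arid1a loss, 4 higher and 3 lower after JQ1 and 7 for the difference, were as without it.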
